A study of Mus musculus with 6 samples.

Results

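The cytosolic ribosomal protein genes were followed in regulatory T cells (Treg cells, a class of CD4 T cells marked by the transcription factor Foxp3 that hold immune responses in check). They were taken by symbol: protein-coding genes named Rpl or Rps with a number, Rplp0 to Rplp2 and Rpsa, without the Rps6k kinases, pseudogenes and clone names. The rule found 86 genes among 54446 gene rows, of which 52 carry large-subunit names and 34 carry small-subunit names. It also takes in Rps19bp1, which encodes a protein that binds Rps19 and is not a subunit of the ribosome, and it leaves out subunit genes with other names, such as Fau and Rack1.

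Total RNA was sequenced from live CD45+ CD4+ Foxp3-GFP+ cells sorted out of subcutaneous tumours of B16F10, a mouse melanoma cell line. The 3 control libraries came from Foxp3Cre Ythdf2fl/+ mice, which carry the Cre recombinase and 1 floxed Ythdf2 allele, and the 3 libraries labelled Ythdf2 cKO (cKO replicates 1 to 3 in the text) came from Foxp3Cre Ythdf2fl/fl mice, so every mouse carried Cre driven from Foxp3 and at least 1 floxed allele. The labels name 2 cages: cage 1 housed the mice of control replicates 1 and 2 with that of cKO replicate 1, and cage 2 those of control replicate 3 with cKO replicates 2 and 3. The labels give no age and do not say whether each library is a separate animal, so p-values rest on the spread among these libraries, part of which may be technical.

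The ribosome joins a small subunit, which decodes the mRNA, to a large subunit, which forms the peptide bond, and each cytosolic subunit holds its own set of proteins around ribosomal RNA. Most ribosomal protein mRNAs begin with a C followed by a run of pyrimidines, the terminal oligopyrimidine or TOP sequence, through which growth signals acting over mTOR control their translation. Activated lymphocytes are known for a strong demand for new ribosomes. The protein Ythdf2 recognises N6-methyladenosine in mRNAs and hastens the decay of the mRNAs it binds.

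The libraries held between 5602053 and 13602069 gene counts. Values are CPM, read counts relative to a library size scaled by TMM, a factor that lines up the bulk of genes between libraries. Mitochondrial ribosomal RNA took 42.6% of the counts of control replicate 3 and between 9.97% and 19.2% elsewhere, and the TMM factor of that library was 0.713. Ythdf2 itself stood at 124, 102 and 93.1 CPM in control replicates 1 to 3 and at 90.1, 104 and 104 CPM in the labelled cKO libraries (log2 fold change -0.10, SE 0.16, edgeR adjusted p = 1). Its RNA therefore gives no check of the labels, and directions below belong to the libraries as labelled. All 8 Treg markers were measured in every library, but their summed level differed between libraries. It was 6766, 6067 and 3644 CPM in control replicates 1 to 3 and 6691, 5033 and 4139 CPM in cKO replicates 1 to 3. The summed level of the 10 melanoma markers was 416 and 597 CPM in the cage 1 controls and 58.1 CPM in cKO replicate 1, against 5712 CPM in control replicate 3 and 2807 and 3887 CPM in cKO replicates 2 and 3. These markers were thus higher in every cage 2 library than in any cage 1 library.

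The sequence around the annotated start held the TOP feature more often in this family than elsewhere, though most of its windows lacked it. RefSeq start windows (GRCm38.p6) were matched for 66 of the 86 genes, with 78 windows. A C at the start followed by 4 pyrimidines was found in 17.9% of the ribosomal protein windows and in 2.51% of all 32851 RefSeq windows. Annotated starts can lie some bases away from the true ones, so this share rests on the annotation. The letters CTTTCC, on the gene strand within 30 bases of the start, were in 17.9% against 2.89% of windows, and CTCTTT in 14.1% against 2.29%, and these 2 motifs and the TOP run can overlap. Each line, for a gene picked as an example, gives 15 bases before and 15 after the annotated start. Runs of at least 5 pyrimidines are in capitals. Rps6, Rplp2, Rpl28 and Rpl38 show the run at the start. Rpl22l1 shows it just past the start, and its paralog Rpl22, together with Rpl10, has no such run in this window.
Rps6 (chr4:86857353-86857382, minus strand): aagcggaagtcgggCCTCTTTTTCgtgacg
Rplp2 (chr7:141447636-141447665, plus strand): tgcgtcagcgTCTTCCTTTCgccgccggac
Rpl28 (chr7:4792950-4792979, plus strand): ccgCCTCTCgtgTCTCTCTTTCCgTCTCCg
Rpl38 (chr11:114668565-114668594, plus strand): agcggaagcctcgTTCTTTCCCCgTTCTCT
Rpl22l1 (chr3:28805493-28805522, plus strand): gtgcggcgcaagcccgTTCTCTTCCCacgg
Rpl22 (chr4:152325711-152325740, plus strand): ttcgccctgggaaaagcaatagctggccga
Rpl10 (chrX:74270801-74270830, plus strand): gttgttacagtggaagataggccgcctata

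Upstream, the letters CGGAAG on either strand, the core of the motif bound by ETS-family transcription factors, were found in 60.3% of the 78 ribosomal protein windows of 300 bases (250 before the start to 50 after) and in 16.9% of all RefSeq windows. The 100 bases before the start of Rpl37a, whose level varied less between libraries than that of any other tested member, hold 2 copies in the reverse orientation, in capitals. Rps15 holds 1 copy in the forward orientation.
Rpl37a (chr1:72711160-72711259, plus strand): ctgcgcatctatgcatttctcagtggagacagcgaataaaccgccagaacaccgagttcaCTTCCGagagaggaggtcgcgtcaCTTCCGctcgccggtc
Rps15 (chr10:80292331-80292430, plus strand): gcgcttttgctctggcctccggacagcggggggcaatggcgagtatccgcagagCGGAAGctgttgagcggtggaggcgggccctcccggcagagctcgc

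Of the 86 genes, 80 passed the filter on low counts, 47 of the large and 33 of the small subunit. The other 6 were Rpl10l, Rpl24, Rpl36al, Rpl39l, Rpl3l and Rps27rt, and none of them exceeded 2.08 CPM in any library. Rpl10l had no count in any library, and Rpl10l, Rpl39l and Rpl3l are paralogs best known from testis or muscle. Rpl24, a subunit gene of all cells, held only 4, 5 and 0 counts in control replicates 1 to 3 and 0, 0 and 6 in the labelled cKO libraries. On the annotation, 71.5% of its transcript is shared with the readthrough gene Gm28037, which was listed at 0 in every library. A like overlap covered 63.1% of Rpl36al with Gm49383, 91.6% of Rps10 with RPS10-NUDT3 and 59.3% of Rpl13a with Gm45713, each of these partners also at 0. The counts of these 4 genes are therefore not read as levels of expression, and the part of the overlap in their low values was not tested.

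Per kilobase of transcript, the highest large-subunit genes were Rplp2 at 1291 ± 238, Rplp1 at 1211 ± 254 and Rpl22 at 786 ± 189 CPM per kilobase (SD over all 6 libraries). Rplp1 and Rplp2 encode the acidic proteins of the stalk, and the difference between their means was smaller than these SDs. Among small-subunit genes the order was led by Rpsa at 797 ± 181, Rps27 at 576 ± 67.3 and Rps23 at 499 ± 78.6 CPM per kilobase. Rpsa encodes the laminin-receptor-like protein of the small subunit, and its mean lay within these SDs of that of Rpl22. The SDs include changes shared by the genes of a library, so they do not test 1 gene against another. With Rpl13a and Rps10 set aside for the readthrough overlap, the lowest of the tested large-subunit genes were Rpl22l1 at 26.1 ± 9.54 and Rpl7l1 at 40.1 ± 6.32, paralogs of Rpl22 and Rpl7. The lowest small-subunit genes were then Rps19bp1 at 15.1 ± 5.36 and Rps27l at 28.7 ± 8.02 CPM per kilobase. Lengths are those of 1 principal transcript per gene, and the order moved with that choice. With the union of all exons Rplp2 stood at place 15 with 262 CPM per kilobase and Rplp1 at place 1 with 1211. Rpsa then stood at 402 and Rpl22 at 128 CPM per kilobase.

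The family took 2.63%, 2.25% and 1.25% of all gene counts in control replicates 1 to 3 and 1.85%, 1.94% and 1.84% in the labelled cKO libraries. The groups overlapped, at 2.05 ± 0.712% and 1.88 ± 0.0541% (SD, n = 3 each). With mitochondrial and ribosomal RNA genes left out of the total, the shares were 3.03%, 2.56% and 2.29% in the controls and 2.07%, 2.40% and 2.31% in the labelled cKO libraries. Control replicate 1 then stood highest and cKO replicate 1, from the same cage, lowest.

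**Figure D1:**
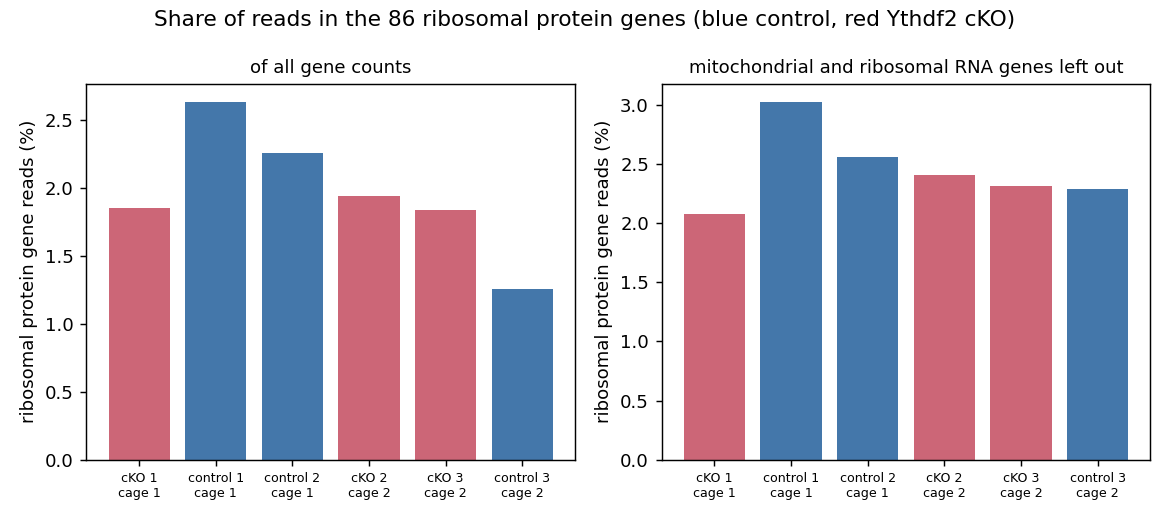
Percent of reads in the 86 ribosomal protein genes, 1 bar per library, of all gene counts (left) and with mitochondrial and ribosomal RNA genes left out of the total (right). Control replicate 3 is lowest on the left at 1.25%, and cKO replicate 1 is lowest on the right at 2.07%.

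Members moved together between libraries. Across the 80 tested members the median SD of log2 CPM over the 6 libraries was 0.23, against 0.40 over all 13172 genes tested. For the members it fell to 0.13 when each was taken relative to the median member of its library, a step not taken for other genes. Rpl3, Rpl6 and Rpl27a held the steadiest relative levels (SD 0.044, 0.044 and 0.049 on the log2 scale). The relative SD was above 0.3 for 4 tested members (Rpl22l1, Rps10, Rps19bp1 and Rps27l), all of low count, and under 0.2 for 66. Control replicate 1 held the highest level of 72 of the 80 members. cKO replicate 1 held the lowest of 36, control replicate 3 of 21 and cKO replicate 3 of 16.

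**Figure D2:**
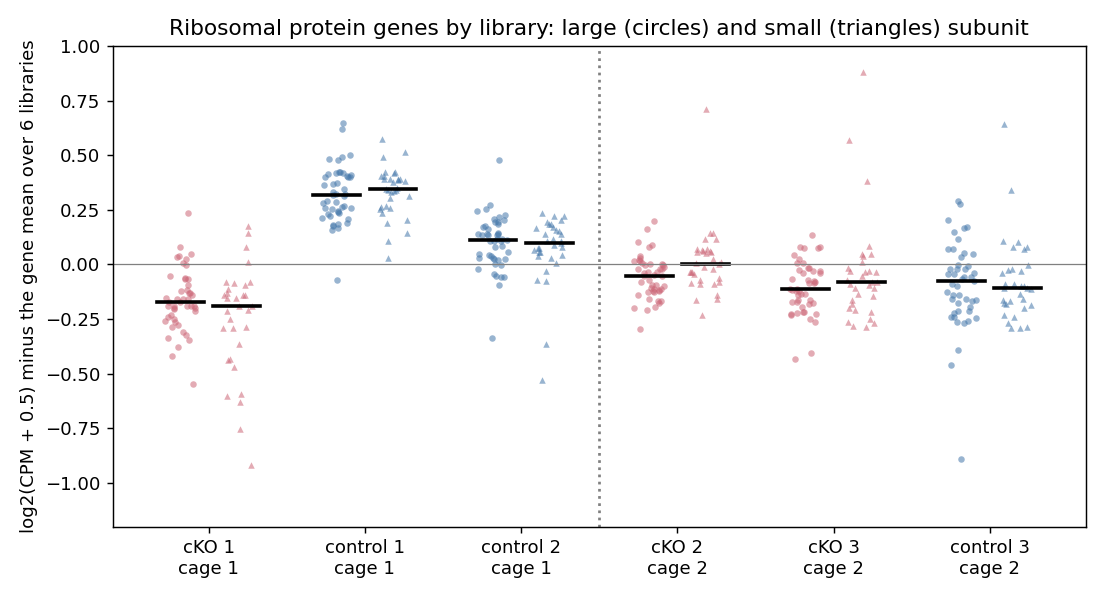
Level of each tested ribosomal protein gene per library as log2(CPM + 0.5) minus the mean of that gene over the 6 libraries, with large-subunit genes as circles, small-subunit genes as triangles, controls in blue, labelled cKO libraries in red and the median of each subunit as a black bar; 1 value lies outside the axis. Both subunits sit highest in control replicate 1 (medians 0.32 and 0.35) and lowest in cKO replicate 1.

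The first comparison asked whether ribosomal protein RNA differs in Treg cells labelled as deleted for Ythdf2. No member passed the threshold (adjusted p under 0.05 in the quasi-likelihood test of edgeR, with Benjamini-Hochberg adjustment), and the same test called 0 of all 13172 genes (0%), with 213 at an unadjusted p under 0.05. DESeq2 and limma-voom also called 0 genes. Of the 80 members, 78 had a log2 fold change below 0 for Ythdf2 cKO over control, where 50.7% of all genes did. Their median was -0.22, -0.24 for the large and -0.21 for the small subunit, beside -0.0049 for all genes. All 47 large-subunit members lay below 0, and Rps10 and Rps19bp1 lay above it. An unadjusted p under 0.05 with a lower value was seen for 3 members and for 0.782% of all genes. In bulk RNA, fewer cells of a type and less RNA per cell cannot be told apart. The median stayed below 0 in every fit of all 6 or of 5 libraries, but it was -0.10 without control replicate 1. It was also -0.10 when scaled by total gene counts, which moved the median of all genes to 0.14.

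Some marker lists of other cells leaned to 1 side of 0 by genotype, though their summed levels overlapped between the groups. All 10 tested macrophage and monocyte markers had log2 fold changes below 0 (median -1.31), and the summed level of the 11 listed ran from 15.9 to 270.1 CPM in the controls and from 4.26 to 111 CPM in the labelled cKO libraries, with 8 of them at 0 in cKO replicate 1. All 5 erythroid markers lay above 0 (median 2.45), with sums from 0.618 to 25.4 CPM in the controls and from 17.9 to 147 CPM in the labelled cKO libraries. The 10 melanoma markers had a median of -0.014 over the genotypes, but all 10 were lower in the labelled libraries within each cage (medians -2.55 in cage 1 and -0.82 in cage 2). With cage as a term, their median was -1.51 and that of the macrophage markers -2.55. The 4 tested B cell and 2 tested dendritic markers all lay above 0 by genotype (medians 0.62 and 0.79). The CD8 and NK list and the fibroblast and endothelium list had values on both sides of 0. For the 8 Treg markers the median was 0.0081, with 5 above 0 and 3 below. With cage as a term the Treg median was 0.22, with 0 below 0. None of these markers passed the edgeR threshold by genotype, and their part in the ribosomal protein values was not tested.

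The 3 members with an unadjusted p under 0.05 were Rpl38, Rpl10 and Rpl21, all of the large subunit. Rpl38, a small protein known for its part in translating Hox mRNAs, stood at 186, 181 and 161 CPM in control replicates 1 to 3 and at 136, 140 and 138 CPM in the labelled cKO libraries. These groups did not overlap in either cage. The log2 fold change of Rpl38 was -0.35 with an SE of 0.13 (edgeR unadjusted p = 0.028, adjusted p = 1). Rpl10, which completes the large subunit late in its assembly, stood at 224, 175 and 184 CPM against 134, 157 and 157 CPM. That gave a log2 fold change of -0.38 with an SE of 0.15 (edgeR unadjusted p = 0.041, adjusted p = 1). Rpl21 stood at 134, 108 and 105 CPM against 76.6, 99.9 and 85.5 CPM, with a log2 fold change of -0.40 and an SE of 0.17 (edgeR unadjusted p = 0.047, adjusted p = 1). All 3 were lower in 3 of 3 labelled libraries than in any control.

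In the small subunit, Rps29 and Rps26 were among the genes with the smallest p-values. Rps29 stood at 126, 118 and 106 CPM in the controls and at 64.5, 95.1 and 103 CPM in the labelled cKO libraries, so the groups did not overlap but the cage 2 values lay close together. For Rps29 the log2 fold change was -0.41 with an SE of 0.20 (edgeR adjusted p = 1), and it was -0.23 without cKO replicate 1. Rps26, which lines the channel where mRNA leaves the small subunit, stood at 431, 337 and 338 CPM against 237, 335 and 284 CPM. The log2 fold change of Rps26 was -0.37 with an SE of 0.19 (edgeR adjusted p = 1), and it was -0.24 without control replicate 1. In all, 12 of the 80 members had every labelled library below every control, where 4.22% of all genes did: Rpl7, Rpl8, Rpl10, Rpl19, Rpl21, Rpl26, Rpl38, Rplp1, Rps19, Rps25, Rps26 and Rps29.

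**Figure D3:**
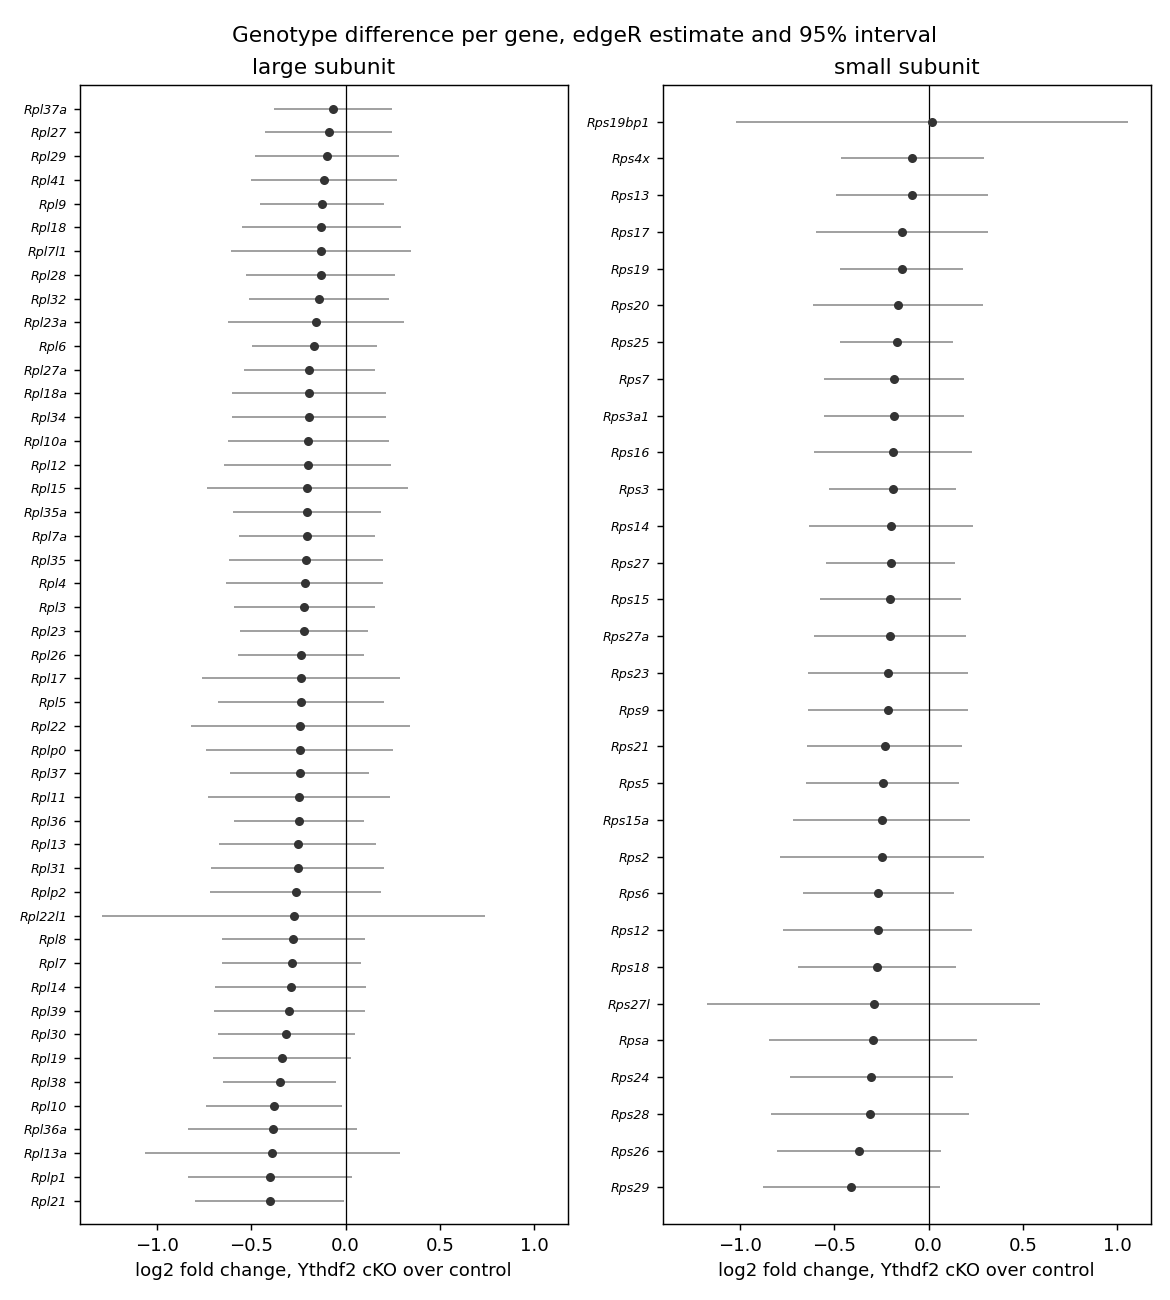
Log2 fold change of Ythdf2 cKO over control for each tested member by subunit, as edgeR estimates (points) with 95% intervals (bars), leaving out Rps10 for its wide interval and 2 members that are not reported here. Of all 80 members, 78 had estimates below 0 and 77 had intervals that include 0.

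By role, the members of the stalk, which recruits the elongation factors, were all below 0. Rplp0, the base of the stalk, stood at 594, 516 and 372 CPM in the controls and at 369, 481 and 400 CPM in the labelled cKO libraries, so the groups overlapped. Rplp1 stood at 831, 653 and 578 CPM against 468, 529 and 566 CPM, with a log2 fold change of -0.40 (SE 0.19). Rplp2 and Rpl12 had log2 fold changes of -0.26 and -0.20. Rpl5 and Rpl11, which carry the 5S ribosomal RNA and bind the p53 regulator Mdm2 when free of the ribosome, were at -0.24 and -0.25. Rps27a, made as a fusion with ubiquitin, was at -0.21. The 8 proteins around the exit of the nascent-chain tunnel ranged from -0.35 (Rpl38) to -0.16 (Rpl23a). The 6 proteins of the decoding site and mRNA channel ranged from -0.37 (Rps26) to -0.19 (Rps3). The medians of these groups lay between -0.25 (stalk) and -0.21 (Rps27a alone), beside -0.22 for the whole family.

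The 2 genotypes were not spread evenly over the cages, so the comparison was also made within each cage, an alternative added after the data were seen. Within cage 1, cKO replicate 1 lay below the mean of both controls for 79 of 80 members, where 55.6% of all genes did, with a median difference of -0.41. It lay below both controls for 74 members, 44 large and 30 small. Within cage 2, the mean of cKO replicates 2 and 3 lay below control replicate 3 for 31 of 80 members and above it for 49, where 50.8% of all genes lay below, and the median difference was 0.019. In that cage both labelled libraries were above the control for 36 members and both below it for 22. For these counts of 74, 36 and 22 members no share of all genes is given, so they are a description only. With cage as a term in the edgeR fit the median was -0.18, 0 members passed the threshold, and 8 members had a lower value with an unadjusted p under 0.05, where 5.90% of all genes did. In cage 1 the comparison sets 1 labelled library, the smallest of the 6, against 2 controls. In cage 2 it sets 2 labelled libraries against 1 control, control replicate 3. That library had the largest share of mitochondrial ribosomal RNA (42.6%) and the lowest TMM factor (0.713) of the 6. Its summed melanoma markers were the highest (5712 CPM) and its summed Treg markers the lowest (3644 CPM). The part of these features in the cage 2 values was not tested.

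**Figure D4:**
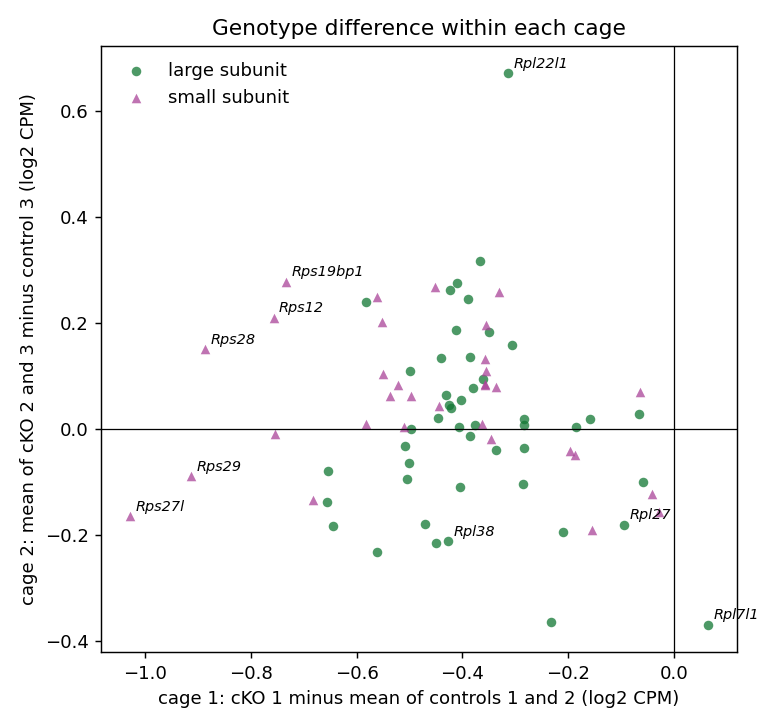
Difference between Ythdf2 cKO and control within cage 1 (horizontal) and within cage 2 (vertical) for each tested member except Rps10, on log2(CPM + 0.5), with large-subunit genes as circles and small-subunit genes as triangles. Nearly all points lie left of 0 (79 of 80 members, with Rps10), while they fall on both sides of 0 on the vertical axis (31 below and 49 above).

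Whether the genotype difference itself differs between the cages was tested with the interaction term, the cage 2 difference minus the cage 1 difference on the log2 scale, in which 2 of the 4 combinations hold 1 library each. The spread in this fit comes from the other 2 combinations, with 2 residual degrees of freedom, and the lone libraries are assumed to vary like them. The edgeR test called 6 genes (0.0456%), none of them a member, and the lowest adjusted p among members was 0.23. The term was above 0 for 73 of 80 members, where 59.5% of all genes were, with a median of 0.48 beside 0.17 for all genes. An unadjusted p under 0.05 above 0 was found for 18 members and for 11.0% of all genes, 8 of the large and 10 of the small subunit. With total counts the term was above 0 for all 80 members, and the median was 1.02 beside 0.71 for all genes. With DESeq2 it was above 0 for 72 members, with a median of 0.41 beside 0.11 for all genes. No share of all genes above 0 is given for these 2 fits. The number of members at an unadjusted p under 0.05 moved with the setting. The smallest p-values belonged to Rps28 (1.05, SE 0.28) and Rps12 (0.98, SE 0.28), both named after their values were seen and given as a description. Rps28 stood at 116, 99.7 and 81.9 CPM in control replicates 1 to 3 and at 58.0, 91.8 and 90.2 CPM in the labelled cKO libraries. Rps12 stood at 136, 113 and 89.5 CPM against 73.0, 105 and 102 CPM. In both genes cKO replicate 1 was lowest of all 6 libraries, and in cage 2 the labelled libraries lay above the control.

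The second comparison set cage 2 against cage 1 with the genotype as a term. The edgeR test called 1516 of 13172 genes (11.5%), 1031 higher (7.83%) and 485 lower (3.68%) in cage 2, and 0 of the 80 members. For 55 members the log2 fold change was below 0, where 49.2% of all genes were, with a median of -0.11 (large subunit -0.096, small subunit -0.12, all genes 0.013). An unadjusted p under 0.05 was found for 7 members and for 26.5% of all genes. The cages did not overlap for 13 members lower in cage 2 and for 1 member higher, Rps10, where 12.2% and 15.1% of all genes did so. All 10 melanoma markers passed the threshold as higher in cage 2 (median log2 fold change 4.39), 6 of 8 Treg markers passed as lower (median -0.65), and 5 of 10 tested macrophage and monocyte markers passed as higher. The part of these other cells in the ribosomal protein values was not tested. The median over the members turned to 0.10 without control replicate 3, was -0.33 without cKO replicate 1 and -0.44 with total counts, which put the median of all genes at -0.32.

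Among the large-subunit genes, the smallest p-values for a lower level in cage 2 belonged to Rpl34, Rpl22l1 and Rpl22. Rpl34 stood at 388, 392 and 349 CPM in cage 1 (control replicates 1 and 2, cKO replicate 1) and at 289, 293 and 292 CPM in cage 2 (control replicate 3, cKO replicates 2 and 3), so the cages did not overlap. Its log2 fold change was -0.35 with an SE of 0.12 (edgeR adjusted p = 0.091). Rpl22, a tunnel-exit protein known for its role in the development of T cells, stood at 513, 434 and 366 CPM in cage 1 and at 264, 354 and 306 CPM in cage 2. Its log2 fold change was -0.49 with an SE of 0.18 (edgeR adjusted p = 0.11). It passed with DESeq2 (adjusted p = 0.035), without the low-count filter (edgeR adjusted p = 0.011) and without cKO replicate 1 (edgeR adjusted p = 0.035), and Rpl34 passed with DESeq2 (adjusted p = 0.021). Without control replicate 3 the value of Rpl22 was -0.16 (edgeR adjusted p = 0.59). The paralog Rpl22l1, which can take the place of Rpl22 in the ribosome, stood at 21.1, 19.1 and 16.1 CPM against 7.10, 11.7 and 11.5 CPM. For Rpl22l1 the log2 fold change was -0.97 with an SE of 0.34 (edgeR adjusted p = 0.11). It was -0.48 without control replicate 3 and -1.50 without cKO replicate 1. Rpl22l1 amounted to 4.30 ± 0.161% of the CPM of Rpl22 in cage 1 and 3.25 ± 0.542% in cage 2 (SD, n = 3 each).

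The large-subunit genes with the smallest p-values for a higher level in cage 2 were Rpl31, Rpl10a and Rpl36, at 0.35 (SE 0.16), 0.26 (SE 0.17) and 0.17 (SE 0.13). Rpl31, also at the tunnel exit, stood at 213, 184 and 125 CPM in cage 1 and at 212, 196 and 189 CPM in cage 2, so only cKO replicate 1 stood apart. With total counts the values of Rpl10a and Rpl36 turned to -0.071 and -0.17. In the small subunit, Rps16 and Rps27 were among the genes with the smallest p-values on the lower side, at -0.32 (SE 0.14) and -0.23 (SE 0.12). Rps16 stood at 134, 109 and 117 CPM in cage 1 and at 99.9, 96.3 and 87.4 CPM in cage 2, so the cages did not overlap (edgeR adjusted p = 0.19). On the higher side were Rps10, Rps27l and Rps2. Rps10 gave 2.07 (SE 0.89, edgeR adjusted p = 0.18) on counts of 34, 30 and 2 in cage 1 and 29, 50 and 53 in cage 2, the gene that shares most of its transcript with a readthrough gene. Rps27l, a paralog of Rps27 that responds to p53, stood at 14.0, 15.8 and 7.04 CPM in cage 1 and at 17.5, 13.4 and 18.1 CPM in cage 2 (log2 fold change 0.67, SE 0.35). It amounted to 5.58 ± 1.85% of Rps27 in cage 1 and 9.06 ± 1.32% in cage 2. Rps2, at the entry of the mRNA channel, gave 0.31 (SE 0.21), which turned to -0.020 with total counts and to -0.063 without cKO replicate 1.

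**Figure D5:**
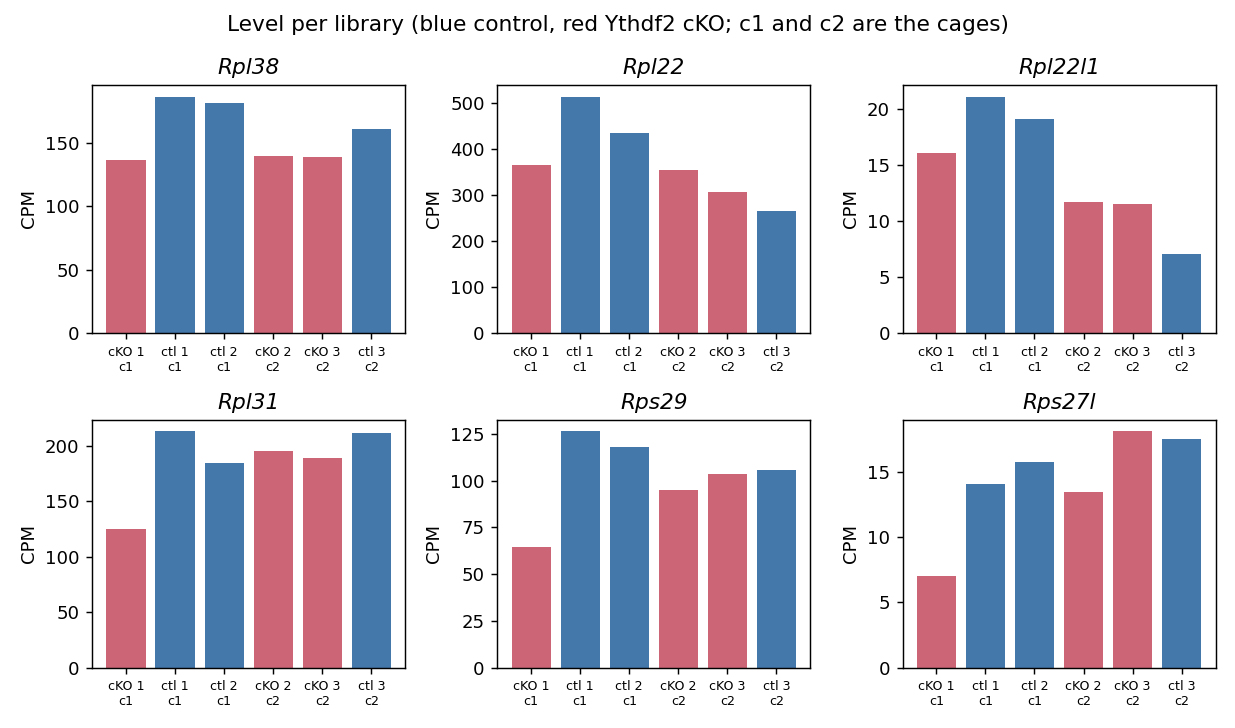
CPM per library of Rpl38, Rpl22, Rpl22l1, Rpl31, Rps29 and Rps27l, ordered by cage, with controls in blue and labelled cKO libraries in red. Rpl38 is below every control in each labelled library (136 to 140 against 161 to 186 CPM), and Rpl22l1 lies between 16.1 and 21.1 CPM in cage 1 and between 7.10 and 11.7 CPM in cage 2.

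On summed CPM the balance between the subunits stayed within its spread. Summed over members, the large subunit stood at 15081, 12915 and 11131 CPM in control replicates 1 to 3 and at 10674, 11498 and 11035 CPM in the labelled cKO libraries. The small subunit stood at 9371, 7837 and 6529 CPM against 6328, 7133 and 6640 CPM. The log2 ratio of large over small was 0.69, 0.72 and 0.77 in the controls and 0.75, 0.69 and 0.73 in the labelled cKO libraries, or 0.73 ± 0.042 against 0.73 ± 0.033 (SD, n = 3 each). By cage it was 0.72 ± 0.034 in cage 1 and 0.73 ± 0.041 in cage 2. Both subunits were therefore high and low in the same libraries. With each member given the same weight, the mean log2 difference was 0.45 in cKO replicate 1 and between 0.24 and 0.34 in the other 5 libraries. By cage this difference was 0.36 ± 0.077 in cage 1 and 0.26 ± 0.028 in cage 2. It includes Rps10, set aside above for its readthrough overlap, with 2 counts in cKO replicate 1. Relative to the median member of its library, Rps10 stood at -5.99, -6.18 and -7.60 on the log2 scale in cage 1. In cage 2 it stood at -5.09, -5.07 and -4.88, so Rps10 by itself separated the cages. Only with Rps10 counted is the difference given here, and on that basis it did not overlap between the cages. It also includes Rps19bp1, which is not a subunit of the ribosome. The part of these genes in the difference was not tested.

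Other genes of the ribosome pathway were described from lists by their place in the same fits. In the genotype comparison none of their members passed the threshold. Fau and Rack1, ribosomal protein genes outside the symbol rule, were at -0.28 and -0.19. The 77 tested mitochondrial ribosomal protein genes had a median of -0.11, with 50 below 0, and the median turned to 0.042 without cKO replicate 1 and to 0.029 with total counts. The 16 translation factors and related genes with TOP mRNAs had a median of -0.18, with 14 below 0. The exceptions were Eif3f at 0.012 (SE 0.18) and Eif4a2, a helicase of translation initiation, at 0.29 (SE 0.17). The 40 ribosome assembly factors had a median of -0.22, with 30 below 0, beside 50.7% of all genes. Of them 4 had a lower value at an unadjusted p under 0.05 (Rpf2, Sbds, Grwd1 and Heatr1), beside 0.782% of all genes. Their median was -0.066 without cKO replicate 1 and -0.071 without control replicate 1, and that of the TOP factors was -0.088 without control replicate 1. Rpf2, which places the 5S RNA particle in the large subunit, stood at 19.2, 15.6 and 19.9 CPM in the controls and at 10.2, 11.4 and 8.41 CPM in the labelled cKO libraries, without overlap. Its log2 fold change was -0.86 with an SE of 0.28 (edgeR unadjusted p = 0.016, adjusted p = 1). Sbds, which helps to release the assembly factor Eif6 from the large subunit, was at -0.61 (SE 0.22). Of 14 RNA polymerase I genes, which transcribe ribosomal RNA, 9 were below 0, and Twistnb had the smallest p at -0.64 (SE 0.21, edgeR unadjusted p = 0.020). The 17 tested regulators of ribosomal protein translation, among them Mtor at 0.17 and Larp4b at -0.16, had a median of -0.028.

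In the cage comparison these lists lay on the other side of 0 from the cytosolic genes in 4 cases. The median was 0.21 for the mitochondrial ribosomal protein genes, 0.17 for the assembly factors, 0.14 for the RNA polymerase I genes and 0.0092 for the translation regulators, of which 9 of 17 lay above 0. The edgeR test called 4 of the 166 tested genes of these lists (2.41%), where it called 11.5% of all genes. These 4 are named after their values were seen. Mrpl12 (1.26, adjusted p = 0.023), Rrn3 (0.89, adjusted p = 0.029) and Eif4ebp1 (1.89, adjusted p = 0.011) were higher in cage 2, and Riok1 (-0.74, adjusted p = 0.045) was lower. Eif4ebp1, the translation repressor that mTOR inactivates, stood at 17.3, 13.7 and 5.90 CPM in cage 1 and at 49.9, 15.7 and 36.1 CPM in cage 2. The melanoma markers were higher in cage 2 in the same libraries, and their part in these values was not tested.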

How the data were processed

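The authors deposited 1 table of raw counts per gene and library. The submitters' processing notes name Trimmomatic 0.39 for trimming, HISAT2 2.1.0 for alignment, HTSeq for counting, DESeq2 and the build mm10. The labels' protocols name a stranded total RNA kit (SMARTer, Takara). Which annotation release and strand setting were used is not given in the sources used here. Reads of overlapping genes may therefore be lost or mixed. Between 24.6% and 35.8% of records fell in no gene and 1.43% to 2.21% were ambiguous, and both stayed out of library sizes.

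Of 54446 rows, 54409 matched GENCODE M21 by identifier. All genes were filtered with filterByExpr (minimum count 10, minimum total 15), scaled by TMM and tested with edgeR 4.0.16 in R 4.3.3, adjusting by Benjamini and Hochberg over 13172 genes. The genotype fit had no other term, and the cage fit kept the genotype. Log2 CPM used a pseudocount of 0.5. No score over the members was tested. The members and lists were chosen with earlier results of these data known. Genes are named as the 3 with the smallest p per subunit and direction, the 3 highest and lowest levels, paralogs and role groups, and up to 4 per other list. Some genes that this rule names are not reported here. Alternatives were DESeq2 1.42.0, limma-voom 3.58.1, other scalings and filters, dropping mitochondrial, rRNA and haemoglobin genes, cage as a term, the replicate number as a block and each library left out. Each pair of libraries differed beyond sampling noise (lowest chi-square per degree of freedom 15.8). Counts of reads are not counts of molecules.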

Additional observations from a re-analysis of the deposited data

How the results depend on the processing

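For the genotype, 0 of 80 members passed the edgeR or DESeq2 or limma-voom threshold under any alternative, and the median stayed below 0 in every fit of all or 5 libraries. DESeq2 had 279 and limma-voom 239 genes with an unadjusted p under 0.05, beside 213 with edgeR. Leaving out 1 library at a time gave a median between -0.31 and -0.10, and with the replicate number as a block (replicate block) it was -0.21 with 79 of 80 below 0 and 0 called. Same-numbered libraries had deviations correlated at 0.43, -0.23 and 0.57. The libraries numbered 1 share a cage, as do those numbered 3, while those numbered 2 do not. These correlations therefore cannot tell pairing by number from the cage. The labels state no pairing, so the numbers were not taken to pair the libraries, and the block changed no call. Within cage 1 the medians were -0.41 for all members, -0.40 for the large and -0.45 for the small subunit, and within cage 2 they were 0.019, 0.0078 and 0.070, with 31 members below 0. Without the low-count filter 26 genes were called higher and 7 lower.

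For the cage, the called genes were 1550 higher and 799 lower with DESeq2, with 2 members, 646 and 732 with total counts, and 873 lower without the low-count filter, with 1 member. With cage as the only term 146 were lower. Without 1 library in turn they ranged from 604 to 920 higher and from 77 to 420 lower, with 0 to 2 members called (2 without cKO replicate 1), 23 to 70 members below 0 and medians from -0.33 to 0.10 (large -0.31 to 0.099, small -0.34 to 0.13). With total counts the medians were -0.44, -0.43 and -0.46. The interaction called 30 genes with total counts and 64 with DESeq2, and 0 members in either. The subunit balance by cage was 0.010 on summed CPM and -0.10 with members, Rps10 among them, weighted the same.

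In the genotype comparison Rps10 turned to -0.24 under the replicate block and to -1.02 with cage as a term, and ranged from -0.28 to 0.70 without 1 library (-0.077 when control replicate 2 was left out, -0.10 for cKO replicate 2 and -0.28 for cKO replicate 3). Rps19bp1 turned to -0.26 with cage as a term and ranged from -0.32 to 0.31 (-0.22 when control replicate 2 was left out, -0.010 for cKO replicate 2). With total counts the cage values of Rpl10a, Rpl36 and Rps2 were -0.071, -0.17 and -0.020, and Rps2 ranged from -0.063 to 0.69 without 1 library. With total counts the genotype median of Fau and Rack1 was -0.11 and that of the translation regulators 0.14. Without 1 library the regulators ranged from -0.033 to 0.075, the RNA polymerase I genes from -0.26 to -0.011, the mitochondrial ribosomal protein genes from -0.20 to 0.042, the assembly factors from -0.33 to -0.066 and the TOP factors from -0.23 to -0.088. The causes were not tested, beyond fewer libraries in each fit. The median SE of a member was 0.18, close to the median difference.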

Other observations

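Small nucleolar RNA genes, which guide the modification of ribosomal RNA, lie inside the introns of 30 members. Of 58 such genes with a row, 19 passed the low-count filter, and none passed the edgeR threshold by genotype or by cage. Of the 19, 15 had a log2 fold change below 0 for Ythdf2 cKO over control, with a median of -0.26. Snord15a, inside Rps3, stood at 177, 213 and 183 CPM in control replicates 1 to 3 and at 175, 162 and 203 CPM in the labelled cKO libraries. Snora21, inside Rpl23, stood at 84.9, 77.2 and 58.2 CPM against 55.7, 52.9 and 63.0 CPM. Neither separated the groups. The kit and the length of these RNAs set how well they are caught, which was not tested.

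The 300 pseudogene rows of the family held between 0.517% and 0.625% of the family's reads. Among tested members with a start window, the 13 with a C and 4 pyrimidines at the annotated start had a median genotype log2 fold change of -0.23 and the 47 others one of -0.22.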
